A study of Mus musculus with 8 samples.

Results

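The genes described here are 6 whose transcripts were lower in TIL effector Treg (eTreg) libraries of KO than of WT mice, followed across both tissues and genotypes. They are Rln3, Izumo1r, Igsf23, Ncmap, Msrb3 and Itga7, 6 of the 49212 genes in the count files, and they were chosen by their TIL counts, which were far lower in the KO than in the WT pair of libraries. That rule has no numerical limit, and the TIL levels that chose the genes are given as a description without a test. The 8 libraries came from C57BL/6 mice bearing subcutaneous B16-OVA tumors, a melanoma line that expresses ovalbumin, of at most 1.5 cm3. The KO mice were Prdm1fl/flFoxP3YFP-Cre and the WT mice FoxP3YFP-Cre, so that all mice carried a YFP-tagged Cre driven by Foxp3 and KO mice deleted Prdm1 only in cells that had expressed Foxp3. All received NP-OVA, emulsified in complete Freund's adjuvant on day 0 and in the incomplete form on day 7, and mice of both sexes were 5 to 10 weeks old per the study's methods. Cells sorted as CD45+CD44+YFP+CD4+CD3+ from spleen or tumor gave 2 libraries per group, and splenic cells had first been enriched with CD4 microbeads, a step not described for tumor cells. The study compared the genotypes within each tissue to ask how loss of Blimp1 alters eTreg cells in the tumor and in the periphery. Whether the 2 libraries of a group came from separate mice is not stated, so p-values measure only the spread between these libraries.

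Treg cells restrain immune responses under the transcription factor Foxp3, and the effector subset found in tumors also expresses Blimp1, the zinc finger repressor encoded by Prdm1. The 6 genes have no common pathway. Rln3 encodes relaxin-3, a secreted peptide of the insulin superfamily best known as a neuropeptide. Izumo1r encodes folate receptor 4, a GPI-anchored protein that is abundant on Treg and anergic CD4+ T cells and is the receptor for sperm Izumo1 on the egg, where it is called Juno. Igsf23 encodes a membrane protein of the immunoglobulin superfamily. Ncmap encodes a membrane protein of peripheral myelin first described in Schwann cells, and Itga7 the integrin α7 chain, which pairs with integrin β1 as a laminin receptor of muscle. Msrb3 encodes methionine sulfoxide reductase B3, an enzyme that repairs oxidized methionine.

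The upstream sequences of the genes were read for the motifs of transcription factors that act in Treg cells. A RefSeq start (GRCm38.p6) was found for 5 of the 6 genes, and the 250 bases before it were searched on both strands for the Blimp1 core GNGAAAG, the forkhead core GTAAACA, the STAT motif TTCNNNGAA, the AP-1 motif TGANTCA and the ETS motif CCGGAAG. The windows of Rln3 (chr8:84044980-84045229, minus strand), Igsf23 (chr7:19950744-19950993, minus strand) and Ncmap (chr4:135398228-135398477, minus strand) are shown 5′ to 3′ because Rln3 was the only gene with a match, beside which Igsf23 and Ncmap stand as windows without one. Capitals mark the Blimp1 core.
Rln3: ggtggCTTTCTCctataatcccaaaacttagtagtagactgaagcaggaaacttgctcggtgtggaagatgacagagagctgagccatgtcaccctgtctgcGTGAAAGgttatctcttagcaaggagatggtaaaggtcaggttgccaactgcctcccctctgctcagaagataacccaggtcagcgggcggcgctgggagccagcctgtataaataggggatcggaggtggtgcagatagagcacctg
Igsf23: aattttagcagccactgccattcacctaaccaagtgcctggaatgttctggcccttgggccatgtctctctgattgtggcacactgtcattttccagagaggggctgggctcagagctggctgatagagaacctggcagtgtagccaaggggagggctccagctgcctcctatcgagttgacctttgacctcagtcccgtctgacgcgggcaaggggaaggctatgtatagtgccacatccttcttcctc
Ncmap: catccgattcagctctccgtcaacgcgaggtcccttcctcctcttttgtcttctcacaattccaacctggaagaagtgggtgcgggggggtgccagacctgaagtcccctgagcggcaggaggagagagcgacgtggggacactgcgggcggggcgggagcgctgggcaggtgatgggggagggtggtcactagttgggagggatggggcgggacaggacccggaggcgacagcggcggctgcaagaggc
Rln3 held the core as CTTTCTC on the opposite strand, starting 245 bases before the RefSeq start, and as GTGAAAG on its own strand, starting 148 bases before it. The 2 matches do not overlap, and 19.4% of the 32851 promoters of this length hold the core. The annotated span of the count files reached into these windows, covering 182 of the 250 bases for Izumo1r, 130 for Msrb3, 21 for Rln3, 13 for Igsf23 and 0 for Ncmap. The windows of Izumo1r, Igsf23, Ncmap and Msrb3 held none of the 5 motifs, which 3.17% (forkhead) to 19.4% (Blimp1) of promoters hold. A match is a run of letters and not a measured binding site, and its absence says only that the letters are not in this window.

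Total counts on genes were 27834676 to 43903859 per library, so that 3 counts, taken as the floor, were worth 0.0644 to 0.112 CPM (counts per 1e+06 counts of a library, scaled by TMM). Such floors cover counting error only. Prdm1, counted over all its exons, stood at 90.7 and 75.1 CPM in the KO TIL pair, 108.4 and 192.0 CPM in the WT TIL pair and overlapped between genotypes in spleen, so it gave no clear check of the labels. The gate's own markers differed between TIL groups. Foxp3 stood at 10.2 and 2.99 CPM in the KO TIL pair, at 25.5 and 60.5 CPM in the WT TIL pair, and at 43.0 to 69.6 CPM in spleen. The summed level of 3 CD4 lineage markers was 83.0 to 187.8 CPM in KO and 839.2 to 1167 CPM in WT TIL libraries, and that of 6 CD8 T cell markers 835.6 to 3903 and 386.4 to 466.6 CPM, with none of these markers at 0 in any library. All 6 CD8 markers and 6 of 8 NK markers were higher in both KO TIL than in both WT TIL libraries, as were 18% of the 15935 genes tested. The 11 macrophage markers all overlapped, with a summed level of 2066 to 17140 CPM in KO and 608.7 to 3614 CPM in WT. In bulk libraries, fewer cells of a type and less RNA per cell cannot be told apart, and the part of other cell types in the values below was not tested.

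In TIL, each of the 6 genes was lower in either KO library than in either WT library, from 7.35-fold (Itga7) to 60.9-fold (Ncmap). Such a separation was present in 19.4% of the 15935 genes tested, and since the rule used this contrast the count is not a result about the 6 genes. Their median log2 fold change, KO over WT, was -4.69, against 0.04 over all genes tested. Every member kept at least 15 counts in every library, 5 times the floor, so all 6 were measured in KO TIL libraries and none was at 0.

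Rln3 stood at 1.87 and 1.46 CPM (59 and 39 counts) in KO TIL libraries and at 71.7 and 53.3 CPM (1995 and 1580 counts) in WT TIL libraries. Both KO libraries lay far below both WT libraries, and the ratio of any WT to any KO library was 28.5 to 49.1. The log2 fold change was -5.23 (standard error, SE, 0.40), the 15th lowest of the 15935 genes tested.

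Among the surface proteins, Izumo1r was at 11.0 and 11.3 CPM (346 and 301 counts) in KO TIL and at 232.1 and 376.2 CPM (6463 and 11151 counts) in WT TIL libraries. The KO pair was nearly level and the WT pair higher by 20.6-fold or more. The log2 fold change was -4.78 (SE 0.40). Igsf23 was the most even of the 6 genes, at 1.17 and 1.20 CPM (37 and 32 counts) in KO TIL and 21.7 and 21.1 CPM (605 and 624 counts) in WT TIL libraries. WT lay 17.6 to 18.5 times above KO, with a log2 fold change of -4.17 (SE 0.43). Ncmap, the myelin protein gene, was the lowest in KO TIL libraries, at 0.825 and 0.561 CPM (26 and 15 counts) against 27.3 and 57.6 CPM (759 and 1706 counts) in WT TIL libraries. The groups did not overlap, although the WT libraries differed by 2.11-fold, and the log2 fold change of -5.93 (SE 0.61) was the 9th lowest of all genes tested. Itga7 had the smallest difference, at 1.43 and 1.01 CPM (45 and 27 counts) in KO TIL and 5.60 and 12.3 CPM (156 and 365 counts) in WT TIL libraries. WT TIL replicate 1 lay 3.92-fold above the higher KO library and WT TIL replicate 2 12.2-fold above the lower one. Its log2 fold change was -2.88 (SE 0.63), the 117th lowest.

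The enzyme gene Msrb3 was at 1.36 and 0.897 CPM (43 and 24 counts) in KO TIL and 22.5 and 32.8 CPM (627 and 973 counts) in WT TIL libraries. Both WT libraries lay at least 16.5-fold above both KO libraries, and the log2 fold change was -4.61 (SE 0.50). When TIL libraries were left out one by one, the 6 values stayed between -6.37 and -2.21, and without WT TIL replicate 2 Ncmap was at -5.30 and Itga7 at -2.21.

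**Figure D1:**
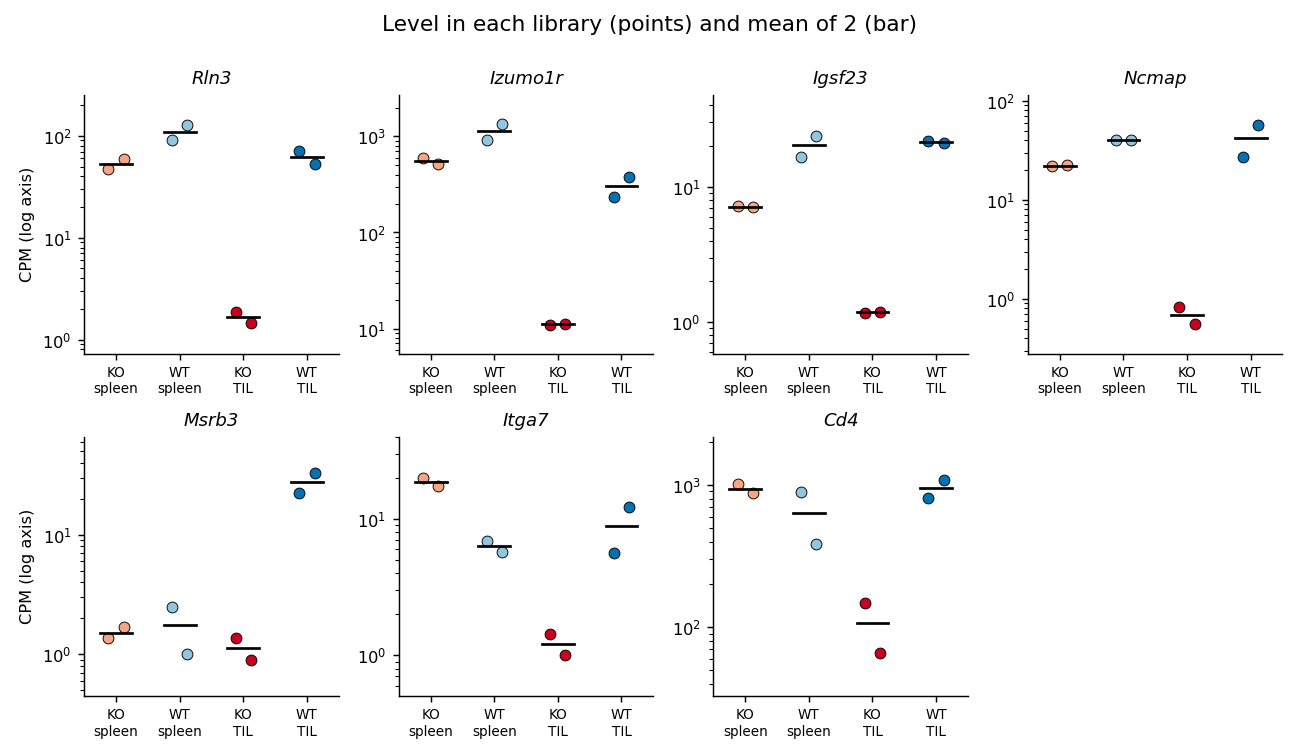
Level of the 6 genes and of Cd4 in CPM (vertical log axis) in each of the 8 libraries, with 1 point per library and a bar at the mean of 2. The KO TIL points lie below the WT TIL points in every panel, for Ncmap at 0.561 and 0.825 CPM against 27.3 and 57.6 CPM, while for Msrb3 the splenic points lie as low as the KO TIL points.

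All sorted cells were gated on CD4, and the transcript of Cd4, the coreceptor that defines the lineage, was itself lower in KO TIL libraries. It was at 147.7 and 66.2 CPM in KO TIL and 807.0 and 1086 CPM in WT TIL libraries, a log2 fold change of -3.15 (SE 0.51). DESeq2's Wald test called Cd4 (adjusted p = 6.7e-06) and edgeR's quasi-likelihood test did not (adjusted p = 0.201). In this contrast edgeR's test called 0% of all genes tested and DESeq2's test 4.45%. Of the 15935 genes, 85 (0.533%) had a log2 fold change as low as that of Cd4, and 36 (0.226%) one of -4 or lower, among which were Rln3, Izumo1r, Igsf23, Ncmap and Msrb3. Itga7 was in neither set.

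Set against Cd4, the log2 fold change differed from that of Cd4 by -2.78 for Ncmap, -2.08 for Rln3, -1.63 for Izumo1r, -1.46 for Msrb3 and -1.02 for Igsf23, all further down, and by 0.27 for Itga7, which was less reduced than Cd4. The median of the 6 differences from Cd4 was -1.54. Per 100 CPM of Cd4, Ncmap was at 0.558 and 0.847 CPM in KO TIL and at 3.38 and 5.30 CPM in WT TIL libraries. Both KO values thus lay below both WT values also on this scale. Msrb3 was at 0.924 and 1.36 CPM per 100 CPM of Cd4 in KO TIL and 2.79 and 3.02 in WT TIL libraries, again without overlap. For Igsf23 the gap was narrow, with 0.795 and 1.81 in KO TIL against 2.69 and 1.94 in WT TIL libraries. Itga7 overlapped, at 0.966 and 1.53 in KO TIL and 0.694 and 1.13 in WT TIL libraries. In all, 5 of the 6 genes were lower in both KO libraries relative to Cd4, where 42 of 15935 genes (0.264%) were. The rule used these libraries, so nothing is read from that share.

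The 2 KO TIL libraries differed in Cd4 by 2.23-fold, and Izumo1r (11.0 and 11.3 CPM) and Igsf23 (1.17 and 1.20 CPM) were level between them. Without KO TIL replicate 1 the log2 fold change of Cd4 was -3.84 and that of Igsf23 -4.16, and the median of the 6 differences from Cd4 was -1.01. Without KO TIL replicate 2 it was -1.89. Relative to Foxp3, 4 of the 6 genes were lower in either KO TIL library than in either WT one, where 46 of 15935 genes (0.289%) were, and since the rule used these libraries nothing is read from that share either. Per 100 CPM of Foxp3, Ncmap was at 8.07 to 18.8 CPM in KO and 95.2 to 107.1 CPM in WT TIL libraries, whereas Igsf23 (11.5 to 40.0 CPM in KO, 34.8 to 85.3 CPM in WT) and Itga7 (14.0 to 33.8 and 20.4 to 22.0 CPM) overlapped.

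**Figure D2:**
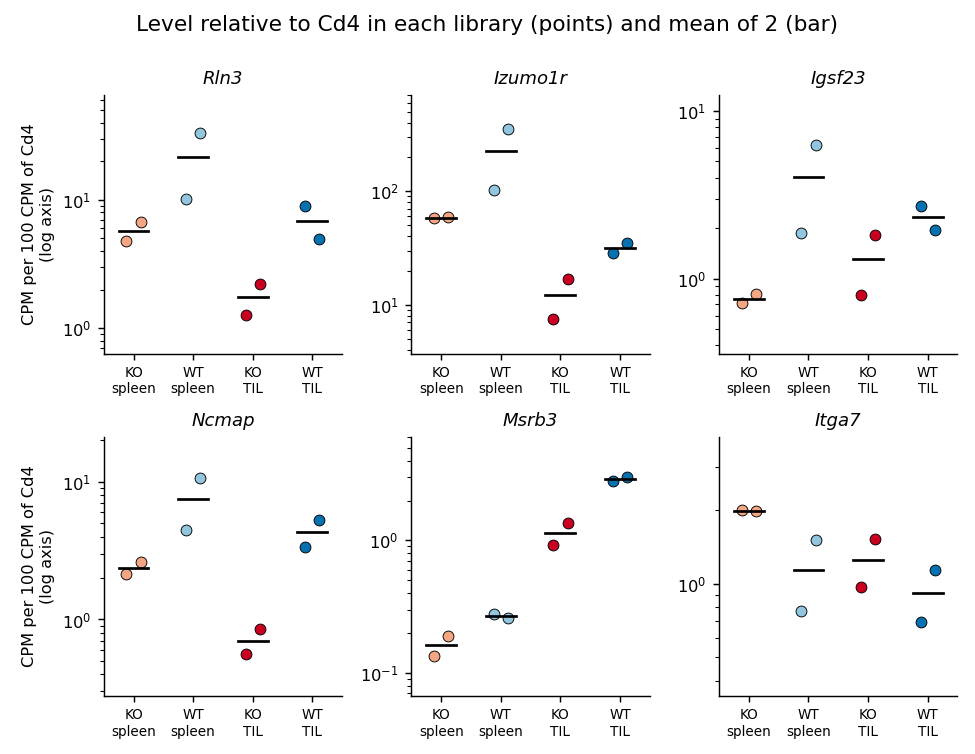
Level of each of the 6 genes per 100 CPM of Cd4 (vertical log axis) in each library, with 1 point per library and a bar at the mean of 2. KO TIL points lie below WT TIL points for 5 genes, narrowly for Igsf23 (1.81 against 1.94), and overlap them for Itga7.

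The genes were chosen with earlier results of these data known, but the rule that chose them did not use the splenic libraries. There, 4 of the 6 genes were lower in both KO libraries than in both WT libraries (15.7% of the 16583 genes tested were), 1 was higher in both (16.4% were), and Msrb3 overlapped. No splenic difference passed the test. edgeR's quasi-likelihood test, at adjusted p 0.05 and a log2 fold change above 1 in size, called 0 of the 6 genes and 0% of all genes tested, and DESeq2's Wald test called 0 of the 6 and 0.442% of all genes. At an unadjusted p under 0.05 in edgeR's test there were 5 of the 6 genes, all but Msrb3, and 2.95% of all genes. The median log2 fold change of the 6 genes was -0.95, against -0.02 over all genes tested.

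Splenic Rln3 was at 47.8 and 59.0 CPM in the KO pair against 90.3 and 126.4 CPM in the WT pair. Both KO libraries lay below both WT libraries, with a log2 fold change of -1.03 (SE 0.35, edgeR adjusted p = 0.878). Izumo1r was at 589.1 and 514.1 CPM in splenic KO and at 909.7 and 1355 CPM in splenic WT libraries, without overlap. Its log2 fold change of -1.05 (SE 0.38) had the same adjusted p of 0.878 from edgeR's test. Igsf23 was at 7.19 and 7.04 CPM in splenic KO and 16.7 and 23.9 CPM in splenic WT libraries, the most separated of the lower genes. Its log2 fold change was -1.52 (SE 0.38, edgeR adjusted p = 0.878, DESeq2 adjusted p = 0.188). Ncmap was at 21.8 and 22.7 CPM in the KO pair against 40.0 and 40.6 CPM in the WT pair, without overlap. Its log2 fold change was -0.86 (SE 0.32, edgeR adjusted p = 0.878), below the size asked of a call.

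Msrb3 was scarce in spleen, at 1.35 and 1.67 CPM in the KO pair against 2.48 and 0.998 CPM in the WT pair. The WT libraries lay on either side of the KO libraries, with a log2 fold change of -0.21 (SE 0.64, edgeR adjusted p = 0.938). Itga7 stood in the other direction from its TIL difference, at 20.1 and 17.4 CPM (935 and 686 counts) in KO and 6.88 and 5.78 CPM (230 and 162 counts) in WT splenic libraries. Both KO libraries lay above both WT libraries, with a log2 fold change of 1.56 (SE 0.37, edgeR adjusted p = 0.878, DESeq2 adjusted p = 0.0974). Cd4 overlapped between the splenic groups, at 1009 and 874.6 CPM in the KO pair against 890.9 and 383.6 CPM in the WT pair.

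In WT spleen replicate 2 the 11 macrophage markers summed to 2508 CPM, against 337.0 to 908.2 CPM in the other splenic libraries. The splenic results above depended on WT spleen replicate 1, the only other WT splenic library. Without it, edgeR's test called 4 of the 6 genes (Rln3, Izumo1r and Igsf23 lower, Itga7 higher), but it then called 3972 of 18008 genes, with the single WT library assumed to vary like the KO pair, and the log2 fold change of Msrb3 was 0.66. With any 1 of the other 3 splenic libraries left out it called 0 of the 6 genes and 21 to 47 genes in all.

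**Figure D3:**
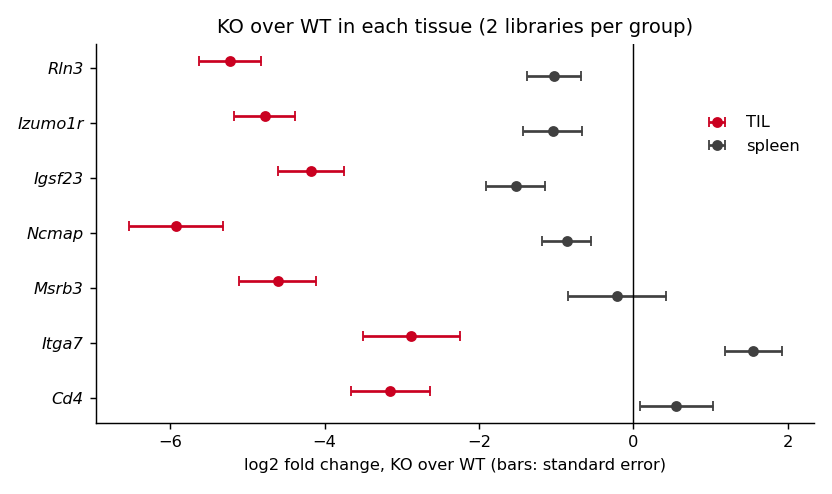
Log2 fold change, KO over WT, of the 6 genes and Cd4 in TIL and in spleen (horizontal axis), with bars of 1 standard error from fits of 2 libraries per group. All TIL values lie between -5.93 and -2.88, whereas splenic values lie between -1.52 and 1.56, with Itga7 and Cd4 above 0.

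**Figure D4:**
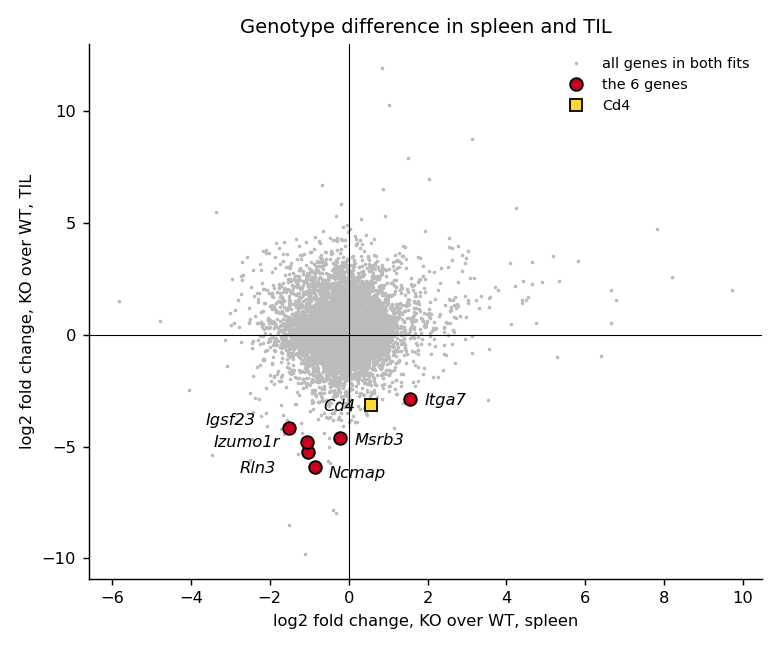
Log2 fold change, KO over WT, in spleen (horizontal axis) and in TIL (vertical axis) for the 14787 genes in both fits, with the 6 genes and Cd4 marked. Rln3, Izumo1r, Igsf23 and Ncmap lie to the lower left, Msrb3 below the centre and Itga7 to the lower right.

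The level in spleen set the genes apart from one another. Values of WT TIL against WT splenic libraries and of KO TIL against KO splenic libraries share the TIL libraries that the rule used and are given without a test. In WT mice, TIL and splenic levels of Igsf23 (log2 difference, TIL minus spleen, 0.07), Ncmap (0.07) and Itga7 (0.50) overlapped. Rln3 (-0.80) and Izumo1r (-1.90) were lower in both WT TIL than in both WT splenic libraries, as were 27% of the 16427 genes tested. Msrb3 was higher in both, by 15.9-fold, as were 25.1% of genes, so that it was at 22.5 and 32.8 CPM in WT TIL and at or below 2.48 CPM in the other 6 libraries. The median over the 6 genes was 0.07, and its sign changed with the scale of the libraries (-0.054 with total counts). In KO mice, 5 of the 6 genes were lower in both TIL than in both splenic libraries, as were 32.9% of 16933 genes. Their log2 differences, TIL minus spleen, were -5.62 for Izumo1r, -4.98 for Rln3, -4.97 for Ncmap, -3.92 for Itga7 and -2.57 for Igsf23. Msrb3 overlapped between KO TIL and KO spleen (-0.40).

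Compared per length of counted exons (RPKM, CPM per kilobase), Izumo1r was the highest in each group and Rln3 came next. In WT spleen the mean levels were 488 RPKM for Izumo1r, 171 for Rln3, 18.1 for Ncmap, 8.98 for Igsf23, 1.58 for Itga7 and 0.430 for Msrb3, and no neighbours in this order overlapped. KO spleen differed in that Itga7 (4.67 RPKM) stood above Igsf23 (3.15 RPKM), again with no overlap between neighbours. In WT TIL libraries Izumo1r (131 RPKM) and Rln3 (98.5 RPKM) overlapped, and Msrb3 (6.84 RPKM) stood above Itga7 (2.23 RPKM). In KO TIL libraries Izumo1r (4.79 RPKM), Rln3 (2.63 RPKM) and Igsf23 (0.524 RPKM) came first in that order, and Ncmap, Itga7 and Msrb3, at 0.279 to 0.311 RPKM, overlapped with their neighbours.

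Across the 8 libraries, 4 of the genes had like profiles. The correlations of log2 CPM between Rln3, Izumo1r, Igsf23 and Ncmap were 0.888 to 0.979, those of Itga7 with these 4 genes 0.677 to 0.847, and those of Msrb3 with the other 5 genes 0.199 to 0.558. The points are 4 groups of 2 libraries, and the TIL libraries that chose the genes are among them, so the values are a description. The genes whose profile was closest to the mean of the 6 were Socs2 (r = 0.991), a suppressor of cytokine signalling, Ikzf4 (0.983), which encodes the Treg transcription factor Eos, 2010107G23Rik (0.983), Rasl11a (0.982) and Penk (0.981), the precursor of enkephalins. Their log2 fold changes in TIL, KO over WT, were -3.03 to -2.30.

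**Figure D5:**
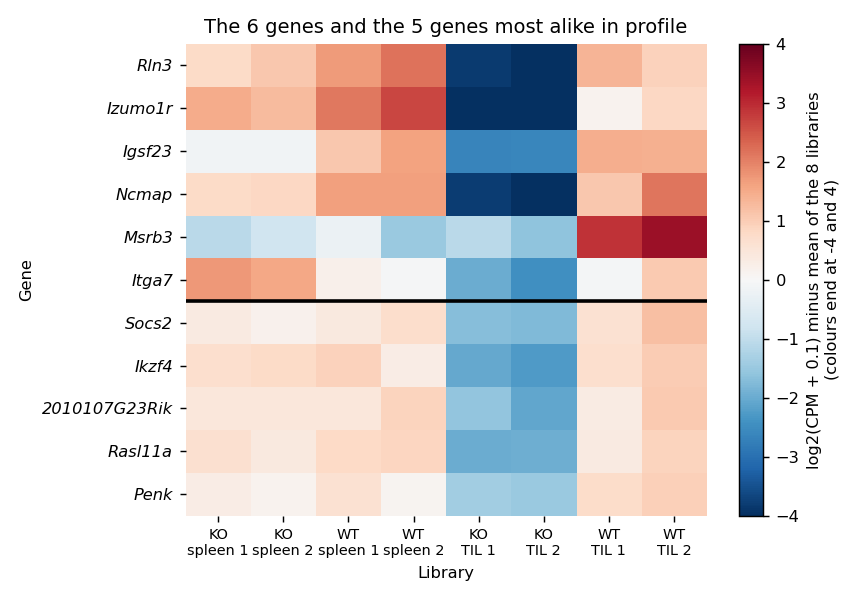
Log2(CPM + 0.1) of the 6 genes (above the line) and of the 5 genes most alike to their mean profile (below it), each minus its mean over the 8 libraries (columns), with colours that end at -4 and 4. The KO TIL columns are blue for all 11 genes, and Msrb3 alone is also below its mean in all 4 splenic columns.

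The 2 genes nearest to each single gene differed between them, except that Rasl11a was nearest both to Rln3 (r = 0.980) and to Ncmap (0.992). The second was Asb2 for Rln3 (0.979) and 2010107G23Rik for Ncmap (0.990). Tspan32 (0.990), a tetraspanin of blood cells, was nearest to Izumo1r, followed by D830030K20Rik (0.988), which had 0 counts in both KO TIL libraries. The genes nearest to Igsf23, Gm37930 (0.980) and Gm9847 (0.973), were at or below 2.00 CPM in every library. Msrb3 was followed most closely by Ccr8 (0.983), the chemokine receptor of tumor Treg cells, at 83.1 and 55.6 CPM in KO TIL, 852.4 and 949.9 CPM in WT TIL and 90.5 to 154.8 CPM in splenic libraries, and by Npr3 (0.977), which had counts only in the WT TIL libraries, at 0.431 and 0.540 CPM. Itga7 was nearest to Itga2 (0.993), the integrin chain of a collagen and laminin receptor, and B4galnt4 (0.979). In spleen both separated with KO above WT, with log2 fold changes of 0.90 and 0.88, and in TIL with KO below WT (-1.69 and -2.39).

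The genes lie on 5 chromosomes of GRCm38, and the nearest expressed neighbours differed in their TIL values, given here as log2 fold changes, KO over WT. Rln3 (chromosome 8, 84042929 to 84045000, minus strand) ends 340 bp from Il27ra on the same strand, the receptor chain for interleukin 27, which was at 63.7 and 174.6 CPM in KO TIL and 282.1 and 276.0 CPM in WT TIL libraries (log2 fold change -1.23). On the other side of Rln3, Gm10643 was scarce, at 0.349 and 0.785 CPM in KO TIL and 0.826 and 2.09 CPM in WT TIL libraries (-1.37). Izumo1r (chromosome 9, 14885814 to 14903949, minus strand) lies 15025 bp from Gpr83 on the opposite strand, a G protein-coupled receptor of Treg cells. Gpr83 was at 0.444 and 0.224 CPM in KO TIL and 3.41 and 5.30 CPM in WT TIL libraries (-3.68), while Panx1 on the other side was at -0.14. Igsf23 (chromosome 7, 19937305 to 19950756, minus strand) has Pvr (0.61) as its nearest expressed neighbour, and Ncmap (chromosome 4, 135369576 to 135398227, minus strand) lies between Srrm1 (-0.07) and Rcan3 (-0.21). Msrb3 (chromosome 10, 120781096 to 120899101, minus strand) lies between Hmga2 (0.07) and Lemd3 (0.93). It spans Gm15910 on the opposite strand (-3.15), with which it shares no exon. Gm15910 was scarce, at 0.317 and 0 CPM in KO TIL and 1.47 and 1.48 CPM in WT TIL libraries. Itga7 (chromosome 10, 128933813 to 128958277, plus strand) shares only base 128958277, its last, with Mettl7b on the opposite strand. Only reads over that base could not be told apart without strand, and Mettl7b was listed with 0 counts in 7 of the 8 libraries. The nearest expressed neighbours of Itga7 were Bloc1s1 (-0.55), 9778 bp away, and Tespa1 (-1.18), 1364575 bp away. The richest 200-nt stretch of the longest annotated transcript held 62% to 74% GC in the 6 genes. Genes in the same bins of 5 percentage points had median TIL log2 fold changes of -0.0046 to 0.0366, against 1.04 for genes of 80% to 85%.

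Relatives of the 6 genes were examined in lists. Of all genes tested in TIL, edgeR's test called 0% and DESeq2's test 4.45%, and 9.87% had an unadjusted p under 0.05 in edgeR's test. With 0% called over all genes, an edgeR count of 0 in a list is not a result about that list. Of 8 other relaxin peptides and receptors only Insl6 and Insl3 were tested, and Rxfp1, Rxfp2 and Rxfp3, among them the receptor for relaxin-3, had 0 counts in all 8 libraries, where the floor allows up to 0.112 CPM. Of 22 genes of folate uptake and one-carbon metabolism 21 were tested in TIL, with a median log2 fold change of 0.24, 0 called by edgeR's or DESeq2's test and 0 at an unadjusted p under 0.05. The folate carrier Slc19a1 was at 36.3 and 53.7 CPM in KO TIL and 54.0 and 50.8 CPM in WT TIL libraries. Izumo1, the sperm ligand of Izumo1r, had at most 0.0718 CPM in any library, and of 3 tested genes of sperm and egg fusion neither test called one (1, Cd81, at an unadjusted p under 0.05). Of the 16 methionine sulfoxide reductase and thioredoxin genes none was called in TIL by either test, 1 (Msrb1) had an unadjusted p under 0.05, and the median was 0.06. Msra was at 24.3 and 22.1 CPM in KO TIL and 20.6 and 22.2 CPM in WT TIL libraries, while Msrb1 (log2 fold change 1.48) was higher and Msrb2 (-1.25) lower in both KO TIL libraries.

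Of the 8 laminin receptor genes none was called in TIL by either test (edgeR's called 0% and DESeq2's 4.45% of all genes). Bcam, Itga2 and Itga3 were lower at an unadjusted p under 0.05, which 9.87% of all genes had. The median was 0.37, with 3 higher and 3 lower in both KO libraries (18% and 19.4% of all genes tested were). Itgb1, the partner chain of integrin α7, was at 903.7 and 798.5 CPM in KO TIL and 564.4 and 600.3 CPM in WT TIL libraries (log2 fold change 0.54, standard error 0.30). In the 10 other genes named Igsf, 7 were tested in TIL, none was called, none had an unadjusted p under 0.05 and the median was 0.61. In spleen neither test called a gene of these 6 lists (edgeR's called 0% and DESeq2's 0.442% of all genes). There 2 genes (Itga2 and Srxn1) had an unadjusted p under 0.05 in edgeR's test, as had 2.95% of all genes.

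Ncmap and Itga7 are best known from Schwann cells and muscle, whose markers were examined in the same libraries. The Schwann cell genes Drp2, Gjb1 and Cldn19 were at or near 0, with at most 0.287 CPM in any library. The summed level of the 11 Schwann and myelin markers, nearly all of it Mbp, Egr2 and Pmp22, was 217.5 to 523.1 CPM in KO TIL and 236.9 to 307.8 CPM in WT TIL libraries. Of these, 0 were called by either test and 0 had an unadjusted p under 0.05. Over all genes tested in TIL, edgeR's test called 0% and DESeq2's test 4.45%, and 9.87% had an unadjusted p under 0.05. Of the 9 muscle and mural markers, Acta2, smooth muscle actin, was called lower in KO TIL libraries by DESeq2's test (log2 fold change -2.47). It was at 2.32 and 0.785 CPM in KO TIL against 11.4 and 5.84 CPM in WT TIL libraries, and edgeR's test did not call it (adjusted p = 0.374). Of the 7 markers tested, 2 were lower and 1 higher in both KO TIL than in both WT TIL libraries (19.4% and 18% of all genes tested were). The higher one was Ckm, at 1.52 and 1.05 CPM in KO TIL and 0.754 and 0.810 CPM in WT TIL libraries. Acta1 overlapped, at 2.06 and 1.42 CPM in KO TIL and 1.80 and 1.38 CPM in WT TIL libraries. The summed level of the 9 markers was 4.90 to 13.4 CPM in KO TIL, 11.0 to 24.2 CPM in WT TIL and 1.95 to 3.84 CPM in splenic libraries. Of 4 tested fibroblast markers Col3a1 and Col1a1 were called lower in KO TIL libraries by DESeq2's test, which called 4.45% of all genes in either direction. edgeR's test called neither (adjusted p = 0.410 and 0.376). Both were scarce, Col3a1 at 0.508 and 0.0374 CPM in KO TIL and 1.87 and 6.27 CPM in WT TIL libraries. Col1a1 was at 0.476 and 0.523 CPM in KO TIL and 1.47 and 6.00 CPM in WT TIL libraries. The 7 fibroblast markers summed to 22.0 to 77.5 CPM in KO TIL, 64.8 to 70.5 CPM in WT TIL and 0.515 to 1.68 CPM in splenic libraries. Most of the TIL sums was Sparc, which overlapped (75.7 and 21.4 CPM in KO, 65.5 and 48.7 CPM in WT).

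The genes of Treg identity were lower alongside the 6 genes in TIL. DESeq2's test called 15 of 19 lower in KO TIL libraries (4.45% of all genes were called in either direction), edgeR's test called 0 of them and 0% of all genes (17 of the 19 and 9.87% of all genes had an unadjusted p under 0.05), and the median log2 fold change was -2.71. Some of these, such as Foxp3, Ctla4, Il2ra, Ikzf2, Ikzf4 and Il10, had been singled out by the study on the same libraries, so their direction is not independent evidence. The lowest log2 fold changes were those of Lrrc32 (-3.88), Ccr8 (-3.70) and Gpr83 (-3.68), and these 3 and Ikzf4 (-3.03), Tnfrsf4 (-2.98) and Ikzf2 (-2.91) lay below that of Itga7 (-2.88). In spleen the median of the 19 genes was -0.37 and only Il10 was called, by DESeq2's test, at 0.773 and 0.937 CPM in the KO pair against 14.3 and 14.0 CPM in the WT pair. A list of 11 T cell genes held chains of the T cell receptor complex, signalling proteins and the surface receptors Cd2, Cd5, Cd6 and Cd28. Its median log2 fold change in TIL was -0.90. DESeq2's test called Cd2 (-2.20) and Cd5 (-2.24) lower in KO, neither of them a chain of the receptor complex. In all, 7 of the 11 were lower in both KO TIL than in both WT TIL libraries (19.4% of all genes tested were) and 0 higher in both. Among the chains of the complex itself, Cd3e was at 315.4 and 1023 CPM in KO TIL against 927.1 and 1427 CPM in WT TIL libraries. The groups overlapped for this chain and for Cd3d and Cd3g. Cd247 did not overlap, at 68.4 and 207.1 CPM in KO TIL and 275.8 and 326.5 CPM in WT TIL libraries.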

How the data were processed

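The libraries were made from rRNA-depleted total RNA of sorted cells with random hexamers. The authors trimmed reads with Trimmomatic 0.36, aligned them to GRCm38 with STAR 2.5.2b and deposited raw counts per gene, the unique reads within exons from featureCounts (Subread 1.5.2). Whether counting used strand is not given in the sources used here. A second deposited file gives normalized values, a signal in which each library's counts were divided by 1 factor. It holds 16611 genes, and 100% of its values gave back the raw counts within 0.01 reads, so it was used only for this check.

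Groups followed the labels. Levels are CPM after TMM over 8 libraries. Each comparison used its 4 libraries in edgeR 4.0.16 (R 4.3.3) with filterByExpr, TMM and the quasi-likelihood test, with calls at adjusted p 0.05 (Benjamini-Hochberg) and a log2 fold change above 1 in size. Alternatives were DESeq2 1.42.0, its size factors, total counts as the scale, no filter, a mean of at least 50 counts, all 8 libraries in 1 fit, the replicate number as a block, and each library left out in turn. The standard error is the log2 fold change divided by the square root of F. Log2 CPM for correlations used a prior count of 2. Both tests were tested on simulated counts, where edgeR's test found fewer of the changed genes in TIL than in spleen and DESeq2's test made more false calls than edgeR's in both tissues. The genes and lists were chosen with earlier results of these data known. Named genes are the 6 genes, Cd4, Prdm1, Foxp3, the 2 genes most correlated with each gene, the 5 most correlated with their mean, neighbours on the chromosome, and listed genes that were called or high. Other listed genes (Insl3, the Rxfp genes, Izumo1, the Msr genes, the myelin genes, Ckm and Acta1) were named after their values were seen. Motif windows were read with Python 3.11.15. Some genes of the lists are not reported here.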

Additional observations from a re-analysis of the deposited data

Results flagged for a closer look

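Itga7 was flagged because its genotype difference had opposite directions in the 2 tissues. Both KO libraries lay above both WT libraries in spleen (log2 fold change 1.56) and below both in TIL (-2.88). Since the TIL libraries chose the gene, the difference between tissues was not tested. Itga7 was the only one of the 6 genes, and Cd4 was not another, for which both tissues separated without overlap in opposite directions. The pattern was not particular to Itga7, since Itga2 and B4galnt4, picked for their like profile, separated in the same way. The share of all genes that did so was not counted.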

How the results depend on the processing

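The count of the 6 genes called in spleen was 0 under 10 of 11 alternatives and ranged from 0 to 4 when libraries were left out. Of 66 single values in spleen under alternatives 61 kept their direction and side of the threshold, 4 passed it without WT spleen replicate 1, and that of Msrb3, -0.21 as reported, ran from -0.71 to 0.66 with a library left out, reversed only without WT spleen replicate 1. The number of all genes called in spleen was 0 as reported, 75 with DESeq2, 167 with no filter on low counts, 101 with the replicate number as a block and 21 to 3972 with a library left out. The replicate numbers are only numbers: same-numbered libraries correlated in their deviations by 0.23 in TIL and 0.15 in spleen over 2 pairs, and the replicate block called 0 of the 6 genes in spleen. With the block the medians were -4.67 (TIL KO over WT), -1.42 (relative to Cd4), 0.04 (WT TIL minus WT spleen) and -4.46 (KO TIL minus KO spleen). For KO TIL against KO spleen the correlation was -0.22, and with crossed numbers as a block, an alternative added after seeing the data, 2934 genes were called, against 228 with no block and 192 with the same numbers.

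The median log2 fold change in TIL kept its direction and stayed within the spread of replicates under all 11 alternatives (-4.94 to -4.36). The median relative to Cd4 ran from -1.89 to -1.01 with a library left out, the latter without KO TIL replicate 1. The median of WT TIL minus WT spleen, 0.07 as reported, was -0.054 with total counts as the scale and -0.33 to 0.30 with a library left out. The median of KO TIL minus KO spleen, -4.44 as reported, was -4.71 with total counts, -5.03 with a mean of at least 50 counts, a filter that Msrb3 did not pass, and -4.70 to -4.19 with a library left out. Total counts as the scale shifted the median of all genes by -0.14 in the WT and -0.25 in the KO tissue comparison. Depth limits Ncmap most, with 15 counts in KO TIL replicate 2.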
